A study of Mus musculus with 4 samples.

Results

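The 39 genes described here carry out DNA replication or the step from G1 into S phase, and their expression was measured in cultured skin melanocytes of normal mice and of mice lacking the aryl hydrocarbon receptor (AhR). They were chosen by name, from known roles, and not by their signal, though with earlier results of these data known. Each gene was read from the probe set with the highest mean signal over the 4 arrays, and all 39 were found among the 12393 genes that the array names. Epidermal cells from mouse tail skin were cultured without serum in a medium that selects for pigment cells, over 6 to 8 weeks, and the RNA was amplified and hybridised to 1-colour arrays. The wild-type group was 2 female C57Bl/6 mice, and the knockout group was 2 female AhRtm1Bra mice, which carry a deletion of exon 2 of Ahr. The growth medium and culture time were shared by both groups. Each array held cells of an individual mouse, and neither the animals' ages nor a shared litter is given in the sources used here. The comparison asks whether the replication machinery is transcribed at a different level in melanocytes that lack the receptor.

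A cell commits to division in G1, when D-type cyclins with CDK4 or CDK6, and then cyclin E with CDK2, phosphorylate the retinoblastoma protein and its relative p107. Phosphorylation frees E2F transcription factors, which switch on cyclin E and most genes for DNA synthesis. In the same phase the origin recognition complex, CDC6 and CDT1 load the MCM2-7 helicase onto origins, and in S phase CDC45 helps to start it. DNA polymerases then copy the strands, held by the PCNA clamp that replication factor C loads. AhR, a receptor that turns on genes when it binds dioxins and related ligands, is known to bind the retinoblastoma protein and to slow the G1 to S step in several cell types.

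The arrays differed in ways that bear on every value below. Signal at the 3' end of Gapdh over that at its 5' end, a measure of RNA degradation and of the evenness of amplification, was between 1.98 and 2.85 on 3 arrays and 11.9 on AhR knockout 2. The summed signal of 9 measured melanocyte markers was 68540.2 and 54869 in wild type, against 80109.7 and 106477 in knockout, and Ednrb alone was below the signal filter. All 10 tested endothelial markers were lower in knockout, and their list's summed signal was 21051 and 23288 against 13255.3 and 4425.3. Leukocyte markers summed to 2562.3 and 2437.8 against 7030.6 and 4404.5, keratinocyte markers to 594.2 and 524.5 against 1757.1 and 473.8, fibroblast markers to 3832.7 and 5756.3 against 3306.6 and 3832.3, and Schwann and glial markers to 6132.0 and 5274.3 against 7438.9 and 9115.5. Of the tested markers, 6 melanocyte markers were higher and 2 lower. The counts were 4 and 1 for leukocyte, 4 and 1 for keratinocyte, 2 and 3 for fibroblast and 2 and 2 for Schwann and glial markers. Below the filter on low signal were Vwf and Erg among endothelial markers, and Ptprc, C1qa, Cd3e, Cd79a and Adgre1 among leukocyte markers. So were the keratinocyte markers Krt1, Krt15, Sfn, Trp63, Ivl and Lor. The same held for Col1a1, Col1a2, Lum, Pdgfra and Dpt among fibroblast markers, and for the glial markers Mbp and Gfap. In RNA from a whole culture, a smaller share of cycling cells cannot be told apart from less RNA of a gene per cell, and the part of these markers or of the 3' to 5' ratio in the results was not tested. Ahr itself gave signals of 825 and 874 in wild type, against 241 and 843 in knockout. Where that probe set lies relative to exon 2 was not analysed here, so it checks no label.

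No replication or G1/S gene passed the test between the groups, although the set as a whole sat somewhat higher in the knockout arrays. Of the 39 genes, 31 were bright enough to test, and 19 of these were higher and 12 lower in knockout. Their median log2 difference was 0.26, against 0.0055 over all 7436 tested genes, with 0.36 on the first knockout array and 0.25 on the second. Differences of these 31 ran from -1.02 for Rb1 to 1.27 for Prim1. In limma 0 of the 31 had an adjusted p under 0.05, where 0.955% of all tested genes did. The smallest difference that passed anywhere on the array was 3.44-fold, while the largest among the 31 was 2.41-fold.

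At an unadjusted p under 0.05 the count was 5 higher genes and 1 lower. The higher ones were Ccnd3, Mcm2, Prim1, Rfc5 and Rpa2, or 16.1% of the 31, against 7.68% of all tested genes. Prim1 reached the filter on mean signal only through AhR knockout 2. The lower one was Rb1, or 3.23%, against 12.9% of all tested genes. Both knockout arrays lay above both wild-type arrays for 12 of the 31 (38.7%, against 28.7% of all tested genes), and below both for 3 (9.68%, against 26.7%). For the remaining 16 genes the groups overlapped. Among the 8 untested, dim genes, Cdc6, Mcm5 and Tk1 lay wholly above wild type and Cdk6 and Tyms wholly below, where 29.4% and 20.7% of all measured genes did so.

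Single arrays and the choice of probe set moved these figures. Without AhR knockout 1 the log2 differences of Prim1, Rpa1 and Ccnd3 were 2.02, 0.87 and 1.26. Without AhR knockout 2 they were 0.52, 0.40 and 1.10. For Rb1, Rfc5 and Rpa2 the differences were -0.43, 0.75 and 0.63 without AhR knockout 1. Without AhR knockout 2 these were -1.62, 1.26 and 1.36. The median of the set was 0.11 without wild type 2, 0.13 with the dim genes included and 0.082 when a gene's probe sets were averaged.

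**Figure D1:**
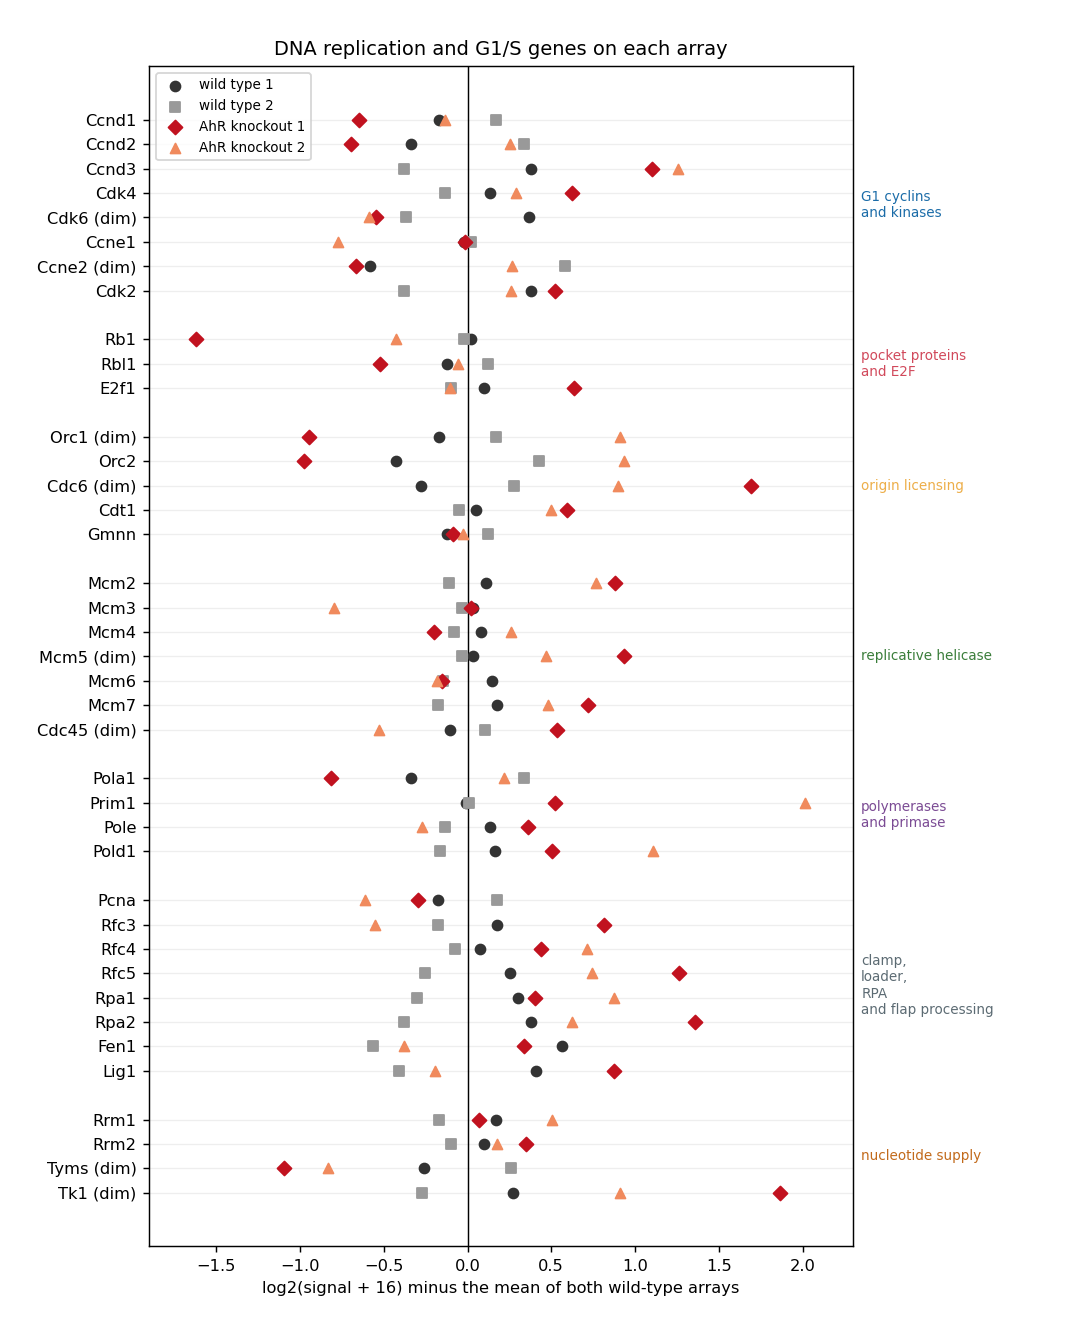
Signal of the 39 genes on each array, as log2(signal + 16) minus the mean of both wild-type arrays, grouped by role; circles and squares are wild type 1 and 2, diamonds and triangles are AhR knockout 1 and 2, and genes marked dim were not tested. Both knockout symbols lie to the right of both wild-type symbols for 12 tested genes, Ccnd3 and Mcm2 among them, while for Orc2 the knockout arrays lie on opposite sides.

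**Figure D2:**
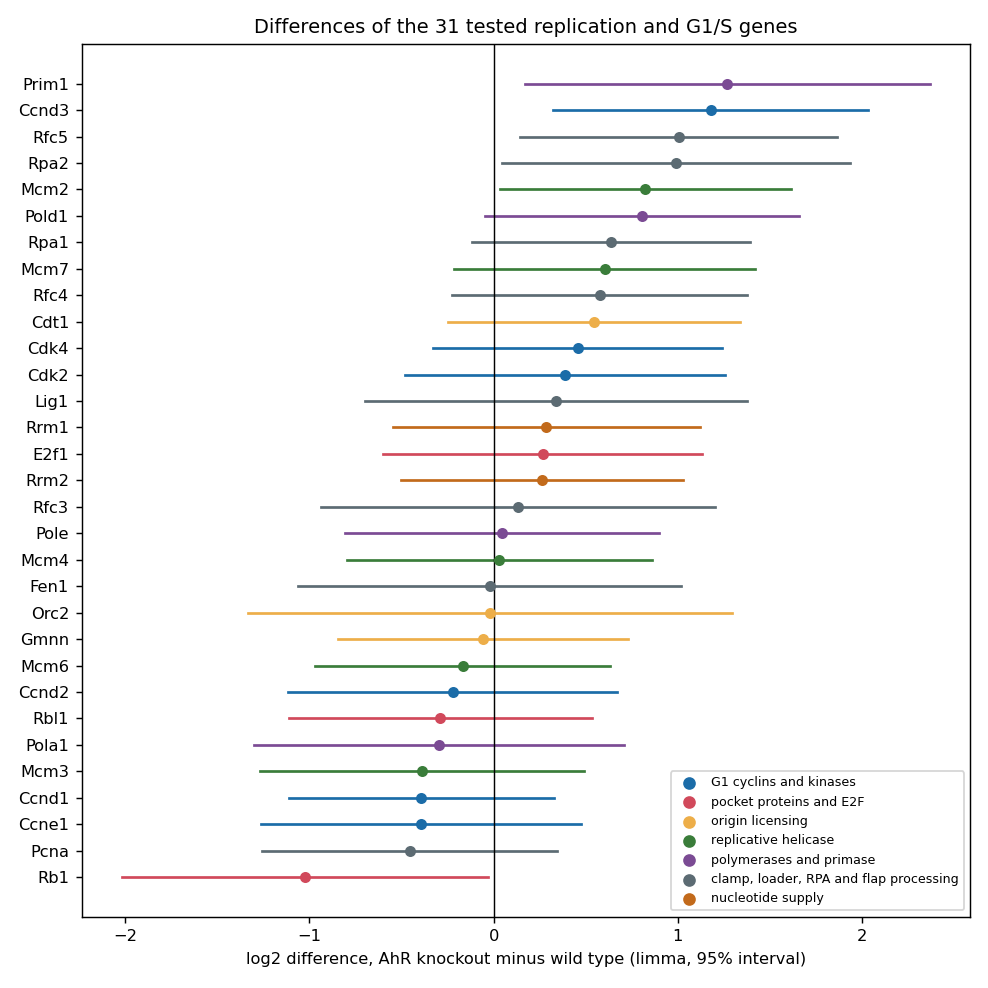
Log2 differences, knockout minus wild type, of the 31 tested genes, ordered by size and coloured by role; points are limma estimates and lines are their 95% intervals. The interval lies above 0 for Prim1, Ccnd3, Rfc5, Rpa2 and Mcm2, below 0 for Rb1, and spans 0 for the other 25.

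Among the G1 cyclins and kinases, cyclin D3 was higher on both knockout arrays and cyclins D1 and D2 were not. Ccnd3 gave signals of 1471 and 864 in wild-type cells, against 2436 and 2719 in AhR-deficient cells, so both knockout arrays exceeded both wild-type arrays. Its log2 difference of 1.18 ± 0.38 (SE, 95% interval from 0.32 to 2.03, adjusted p = 0.14) had the smallest p of the 31 tested genes. Ccnd1, the D cyclin usually induced by growth factor signalling, read 5158 and 6540.3 against 3701 and 5285, a difference of -0.39, and AhR knockout 2 lay between the wild-type arrays. Other Ccnd1 probe sets gave 0.051 and -0.075 within overlapping groups. Ccnd2 read 3500.3 and 5581 against 2724 and 5271, a difference of -0.22 within overlapping groups. Its other probe sets ran from -1.06 to 0.34. The one at -1.06 was separated, at 297 and 577 against 227 and 161 (limma, unadjusted p = 0.034, adjusted p = 0.23). By their brightest probe sets, the differences of the 3 D cyclins therefore ran from -0.39 to 1.18. The D1 interval, from -1.11 to 0.33, touched the lower end of the D3 interval, and the D2 interval, from -1.11 to 0.67, overlapped it. Whether cyclin D3 differed from its relatives was not tested.

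Their partner kinase CDK4 followed the higher side. Cdk4 gave signals of 1767 and 1459 in wild-type cells, against 2484 and 1965 in AhR-deficient cells, a log2 difference of 0.46 ± 0.35 (SE, 95% interval from -0.33 to 1.24, adjusted p = 0.47) with separated groups, and its other 2 probe sets gave 0.54 and 0.42. Cdk6, the second partner kinase, was dim on every array, at 26.4 and 9.54 against 6.49 and 5.93. For the cyclin E step, Ccne1 read 194 and 200.1 against 195 and 109, where AhR knockout 2 alone was low. Ccne2 was dim and varied as much within as between groups, at 35.2 and 98.4 against 32.2 and 76.1. Cdk2, the kinase of cyclin E, read 1688 and 995 against 1871 and 1553, a difference of 0.39, with AhR knockout 2 between the wild-type arrays.

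Rb1, the retinoblastoma protein that holds E2F in check, had the most negative difference of the 31 tested genes. It gave signals of 725 and 705 in wild-type cells, against 221 and 527 in AhR-deficient cells, and both knockout arrays were below both wild-type arrays. The log2 difference was -1.02 ± 0.44 (SE, 95% interval from -2.02 to -0.033, adjusted p = 0.23). The wild-type arrays were nearly equal, while AhR knockout 1 differed from their mean by -1.62 and AhR knockout 2 by -0.43. In limma its adjusted p was 0.00306 without AhR knockout 2, 0.537 without AhR knockout 1, and 0.465 and 0.976 without wild type 1 and 2. Its unadjusted limma p was above 0.05 under quantile normalization, with equal array medians and, at 0.060, with dim genes included. Rbl1, which encodes p107, read 172 and 207 against 127 and 181, a difference of -0.29 within overlapping groups. E2f1, the activating E2F that RB1 binds, was 0.63 above the wild-type mean in AhR knockout 1 and -0.10 from it in AhR knockout 2, with signals of 274 and 237 against 404 and 236. A further E2f1 probe set gave a mean difference of -0.10, of opposite sign.

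Licensing factors gave higher readings for the loaders CDT1 and CDC6 and a flat one for their inhibitor geminin. Cdt1, which brings the MCM helicase to origins, gave signals of 543 and 506 in wild-type cells, against 798 and 746 in AhR-deficient cells, a tight and separated pair of groups. Its log2 difference was 0.54 ± 0.35 (SE, 95% interval from -0.25 to 1.34, adjusted p = 0.4). Cdc6, the ATPase that loads MCM together with the origin recognition complex, was dim at 8.46 and 19.8 against 79.6 and 39.2, with both knockout arrays above wild type. With dim genes included in the limma fit its log2 difference was 1.30, with an unadjusted p of 0.015 and adjusted p = 0.24. Gmnn, geminin, which blocks CDT1 after origins have fired, read 289 and 346 against 297 and 310.5, a difference of -0.058 with a 95% interval from -0.85 to 0.73.

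Orc2 and Orc1, of the origin recognition complex, split the knockout arrays. Orc2 gave signals of 147 and 279.9 in wild-type cells, against 96.0 and 403 in AhR-deficient cells, so AhR knockout 1 was the lowest array and AhR knockout 2 the highest. The mean difference of -0.021 therefore hides shifts of -0.97 and 0.93. Orc1, the cycling ATPase subunit of the complex, was dim and split the same way, at 12.7 and 20.3 against 0.713 and 44.6. A second tested Orc2 probe set gave -0.69 on AhR knockout 1 and 0.027 on AhR knockout 2. Orc3, Orc4, Orc5 and Orc6 had overlapping groups, with differences of -0.28, -0.76, -0.035 and -0.055.

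The helicase genes gave mixed differences, though their proteins form a ring in which each subunit is present in equal number. Mcm2 gave signals of 270.1 and 229 in wild-type cells, against 473 and 435 in AhR-deficient cells, a log2 difference of 0.82 ± 0.35 (SE, 95% interval from 0.035 to 1.61, adjusted p = 0.23). Mcm7 gave signals of 650.0 and 507 in wild-type cells, against 957 and 808 in AhR-deficient cells, a difference of 0.60 ± 0.37 (SE, 95% interval from -0.22 to 1.42, adjusted p = 0.37). Mcm5 was dim and had the same order, at 56.6 and 53.5 against 119.9 and 82.4. For these 3 genes both knockout arrays were above both wild-type arrays on the brightest probe set. Other Mcm7 probe sets gave 0.77 with separated groups, and 0.15 and 0.25 within overlapping groups.

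By their brightest probe sets, the other 3 subunits did not lie above wild type on both knockout arrays. Mcm3 read 287 and 274 against 285 and 155, where AhR knockout 1 matched wild type and AhR knockout 2 was low, for a difference of -0.39. Mcm4 read 694 and 620.4 against 569 and 789, a difference of 0.03. The other Mcm4 probe set was below wild type on both knockout arrays, at 416 and 401 against 341 and 234, a difference of -0.51. Mcm6 was slightly below wild type on both knockout arrays, at 647 and 524 against 522 and 512, a difference of -0.17 with an interval from -0.97 to 0.63. Its second probe set was also below on both, with a difference of -0.41. In the cell, Cdc45 joins this ring to make the active helicase. Its dim signal was 46.9 and 56.5 against 81.6 and 30.9, with AhR knockout 1 the highest array and AhR knockout 2 the lowest.

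Promoter sequence was set beside these readings because E2F is the shared activator of the set. RefSeq windows (GRCm38.p6) from 250 bases before to 50 after the annotated start were listed for 32 of the 39 genes, 38 windows in all. Windows were searched on both strands for the E2F motif TTTNNCGC in which each N is C or G. It was found in 13 of the 38 member windows (34.2%), against 2.26% of all 32851 windows in the table. With the first T dropped, TTNNCGC, the shares were 55.3% and 9.57%, and each long match also holds the short form. A CCAAT box, searched as CCAAT, was in 52.6% of member windows and 37.4% of all. Member windows were also richer in G and C, with a median of 60.3% against 52.7%, and the part of base composition in the motif shares was not tested. A match is a run of letters and does not show that a factor binds there.

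A few promoters are shown for the contrast that runs through the set, the 250 bases before the start in each, with the E2F matches that lie wholly before the start in capitals. Mcm5 (chr8:75109259-75109508, plus strand) and Mcm7 (chr5:138171884-138172133, minus strand) belong to genes that were higher on both knockout arrays. Cdc6 (chr11:98907901-98908150, plus strand) was higher too, though dim. Mcm6 (chr1:128359706-128359955, minus strand) has 3 matches and was not higher. Rfc3 (chr5:151651209-151651458, minus strand) split the knockout arrays.
Mcm5: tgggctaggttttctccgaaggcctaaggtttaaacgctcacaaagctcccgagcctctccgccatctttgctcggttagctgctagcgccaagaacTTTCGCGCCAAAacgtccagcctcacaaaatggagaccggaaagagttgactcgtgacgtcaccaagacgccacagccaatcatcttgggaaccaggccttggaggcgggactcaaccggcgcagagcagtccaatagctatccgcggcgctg
Mcm7: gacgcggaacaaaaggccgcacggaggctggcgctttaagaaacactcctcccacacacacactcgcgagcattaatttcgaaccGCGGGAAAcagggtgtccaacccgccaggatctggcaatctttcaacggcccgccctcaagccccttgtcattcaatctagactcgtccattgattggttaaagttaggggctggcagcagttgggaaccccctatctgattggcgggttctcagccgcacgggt
Cdc6: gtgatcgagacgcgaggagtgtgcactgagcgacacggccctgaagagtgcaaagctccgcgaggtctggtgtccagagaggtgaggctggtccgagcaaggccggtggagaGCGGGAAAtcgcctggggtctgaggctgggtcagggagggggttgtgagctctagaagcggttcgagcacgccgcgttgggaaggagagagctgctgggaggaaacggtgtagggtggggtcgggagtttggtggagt
Mcm6: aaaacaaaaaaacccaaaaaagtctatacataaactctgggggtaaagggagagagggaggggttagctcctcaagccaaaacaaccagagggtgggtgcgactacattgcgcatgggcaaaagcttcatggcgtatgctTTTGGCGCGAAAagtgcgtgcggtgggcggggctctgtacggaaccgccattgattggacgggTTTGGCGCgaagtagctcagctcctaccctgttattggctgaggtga
Rfc3: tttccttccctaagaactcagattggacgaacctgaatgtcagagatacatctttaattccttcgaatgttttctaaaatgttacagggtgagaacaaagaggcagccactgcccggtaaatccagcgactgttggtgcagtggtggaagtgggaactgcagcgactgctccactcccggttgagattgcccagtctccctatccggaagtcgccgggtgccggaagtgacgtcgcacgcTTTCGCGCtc

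Genes with and without a match both included higher and lower ones. In Mcm5, and at the first place in Mcm6, matches on opposite strands overlap and read as one longer capital run. Cdk2, Cdt1, Lig1, Mcm3, Orc1, Pola1, Pold1 and Rbl1 also held the E2F motif. Of the 10 tested genes with a match to the longer form TTTNNCGC, 6 were higher and 4 lower, with a median of 0.23. Of the 15 tested genes with a window but no match to that form, 11 were higher and 4 lower, with a median of 0.46. In this second group Fen1, Prim1, Rfc4, Rpa2, Rrm1 and Rrm2 held the shorter form TTNNCGC. Ccnd3, Mcm2, Prim1, Rfc5 and Rpa2, the 5 higher genes at an unadjusted p under 0.05, were in the second group. Of these, Prim1 and Rpa2 held the shorter form. Rb1, the lower one, had no window listed. The core of the AhR response element, TNGCGTG on either strand, was in the windows of Cdt1, Mcm2, Rfc4 and Rpa2, or 10.5% of member windows against 5.07% of all. Windows were not listed for Ccnd1, Ccnd2, Ccne2, Gmnn, Mcm4, Pole and Rb1.

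**Figure D3:**
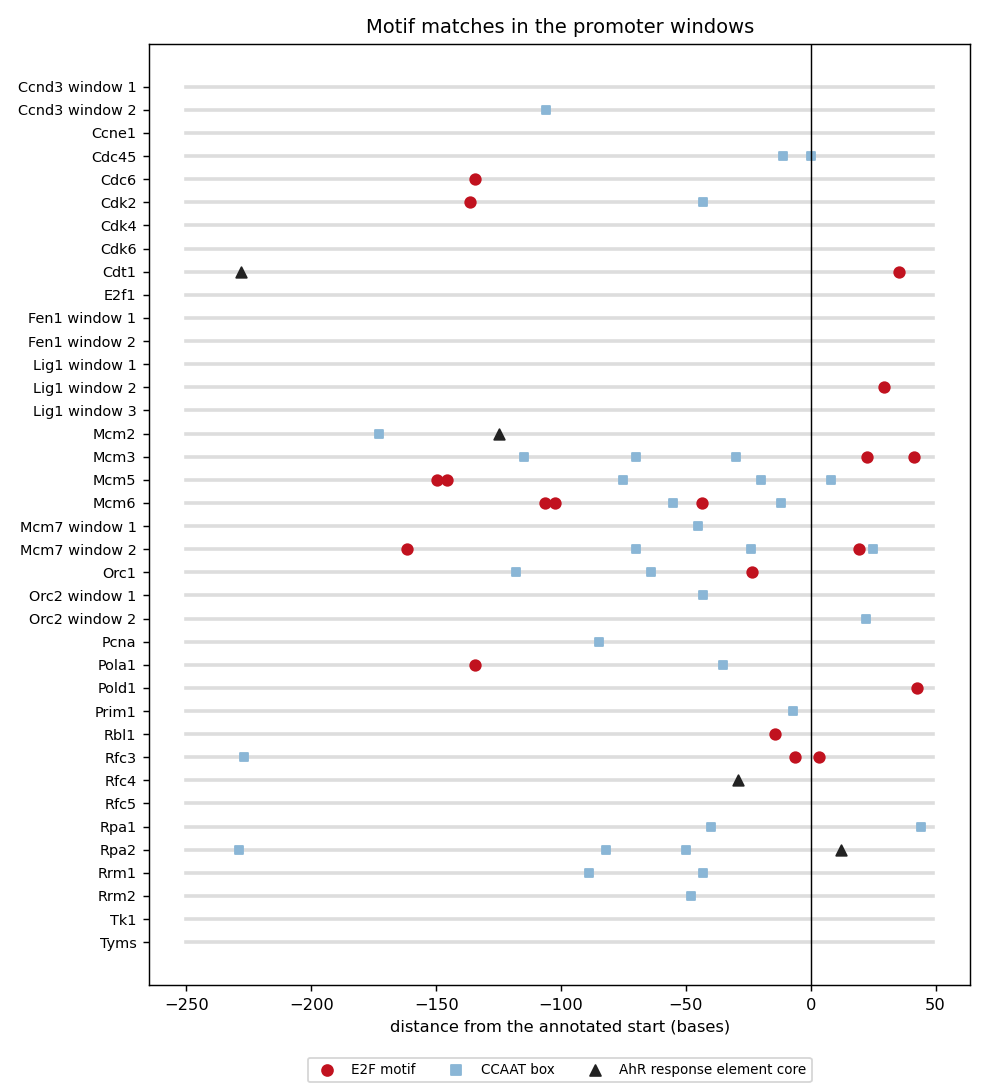
Positions of E2F motif matches (circles), CCAAT boxes (squares) and AhR response element cores (triangles) in the 38 promoter windows of 32 genes, by distance in bases from the annotated start; genes with several starts have numbered windows. E2F matches lie in 13 windows, with those of Mcm5, Mcm6, Cdc6, Cdk2, Pola1, Orc1 and Rbl1 wholly upstream of the start.

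Among the polymerase genes, Prim1 and Pold1 were higher on both knockout arrays, and the groups overlapped for Pola1 and Pole. Prim1, the subunit of primase that makes the RNA primer, gave signals of 43.5 and 44.0 in wild-type cells, against 69.9 and 226 in AhR-deficient cells. Its log2 difference, 1.27 ± 0.49 (SE, 95% interval from 0.17 to 2.37, adjusted p = 0.19), was the largest of the 31 tested genes, and AhR knockout 1 lay 0.52 above the wild-type mean and AhR knockout 2 2.02. A second Prim1 probe set of nearly equal brightness read 81.5 and 86.9 in wild-type cells against 85.6 and 119.6, a difference of 0.23, so the size depends on which is taken. On every array but AhR knockout 2 this second probe set was the brighter of the pair. The first read below the lowest tested mean of 81.1 on those arrays. It was therefore tested, and taken as brightest, through AhR knockout 2 alone. Pola1, the polymerase that shares a complex with primase, read 98.5 and 167 against 66.3 and 152 and split the knockout arrays.

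Pold1, the catalytic subunit of the lagging-strand polymerase delta, was higher on both knockout arrays. It gave signals of 220.3 and 172 in wild-type cells, against 283 and 438 in AhR-deficient cells, a log2 difference of 0.81 ± 0.38 (SE, 95% interval from -0.045 to 1.66, adjusted p = 0.26), and its other probe set gave 0.90. Pole, the catalytic subunit of the leading-strand polymerase epsilon, read 304 and 249.8 against 358 and 226, a difference of 0.046 with an interval from -0.81 to 0.90.

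The clamp gene Pcna and the loader genes of replication factor C gave mixed differences. Pcna, the sliding clamp, gave signals of 1675 and 2140.2 in wild-type cells, against 1538 and 1231 in AhR-deficient cells, below wild type on both knockout arrays, with a difference of -0.46 and an interval from -1.26 to 0.34. The loader subunits RFC5 and RFC4 were above wild type on both. Rfc5 gave signals of 145 and 97.2 in wild-type cells, against 308 and 210.3 in AhR-deficient cells, a log2 difference of 1.01 ± 0.39 (SE, 95% interval from 0.14 to 1.87, adjusted p = 0.19). Rfc4 gave signals of 115 and 101 in wild-type cells, against 152 and 187 in AhR-deficient cells, a difference of 0.58 ± 0.36 (SE, 95% interval from -0.23 to 1.38, adjusted p = 0.38). A dimmer Rfc4 probe set gave -0.19. Rfc3 was the highest array in AhR knockout 1 and the lowest in AhR knockout 2, at 96.1 and 71.9 against 159 and 51.6. The groups overlapped for the other loader genes, Rfc1 and Rfc2, with differences of -0.46 and 0.050.

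RPA coats the unwound single strand, and its subunit genes Rpa1 and Rpa2 were higher on both knockout arrays, while the third, Rpa3, differed by 0.13 within overlapping groups. Rpa1 gave signals of 4898 and 3216 in wild-type cells, against 5255 and 7277 in AhR-deficient cells, a log2 difference of 0.64 ± 0.34 (SE, 95% interval from -0.12 to 1.39, adjusted p = 0.31). The other Rpa1 probe set read 1103 and 668 against 1080 and 948, a difference of 0.23 within overlapping groups. Rpa2 gave signals of 134 and 72.9 in wild-type cells, against 279.9 and 162 in AhR-deficient cells, a difference of 0.99 ± 0.42 (SE, 95% interval from 0.045 to 1.94, adjusted p = 0.23). With its 2 probe sets averaged, the Rpa2 difference was 0.25 with adjusted p = 0.754 in limma. For both genes wild type 1 exceeded wild type 2, by 0.60 and 0.76 on the log2 scale, and the knockout arrays were 0.47 and 0.73 apart. The genes that finish Okazaki fragments overlapped between groups. Fen1, the flap nuclease, read 1293 and 585 against 1105 and 665, and Lig1, the ligase that seals the nicks, read 289 and 156 against 404 and 184. In both, the array numbered 1 was the higher within each genotype.

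Nucleotide supply gave small differences where the signal was bright. Rrm2, the S phase subunit of ribonucleotide reductase, gave signals of 1777 and 1545 in wild-type cells, against 2116 and 1877 in AhR-deficient cells, a log2 difference of 0.26 ± 0.34 (SE, 95% interval from -0.50 to 1.03, adjusted p = 0.68). When its 3 probe sets were averaged the difference turned to -0.11. Rrm1, the large subunit, read 475 and 372 against 441 and 603, a difference of 0.29. Tk1, the salvage enzyme thymidine kinase, was dim but separated, at 32.9 and 17.6 against 132 and 60.2. Tyms, thymidylate synthase, was near the bottom of the scale on every array, at 15.4 and 29.2 against 1.63 and 5.19. With dim genes included in limma, their differences were 1.39 and -0.96, with unadjusted p-values of 0.019 and 0.013 and adjusted p of 0.25 and 0.23. The Tyms signals carry little information on size, because the added 16 exceeds them on most arrays. For Tk1, all signals were above 16, but the added 16 still shrinks its difference.

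Within this set, large gaps were more frequent between the knockout arrays than between the wild-type arrays. Among the 31 tested genes, 6 differed by at least 1 log2 unit between the knockout arrays (Lig1, Orc2, Pola1, Prim1, Rb1 and Rfc3), and 1, Fen1, did so between the wild-type arrays. Such gaps were not counted over all tested genes. Wild type 1 was above wild type 2 for 22 of the 31, with a median gap of 0.20, against 0.067 over all tested genes. AhR knockout 1 was above the wild-type mean for 20 genes and AhR knockout 2 for 18. Over all 7436 tested genes the counts were 4039 and 3617.

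**Figure D4:**
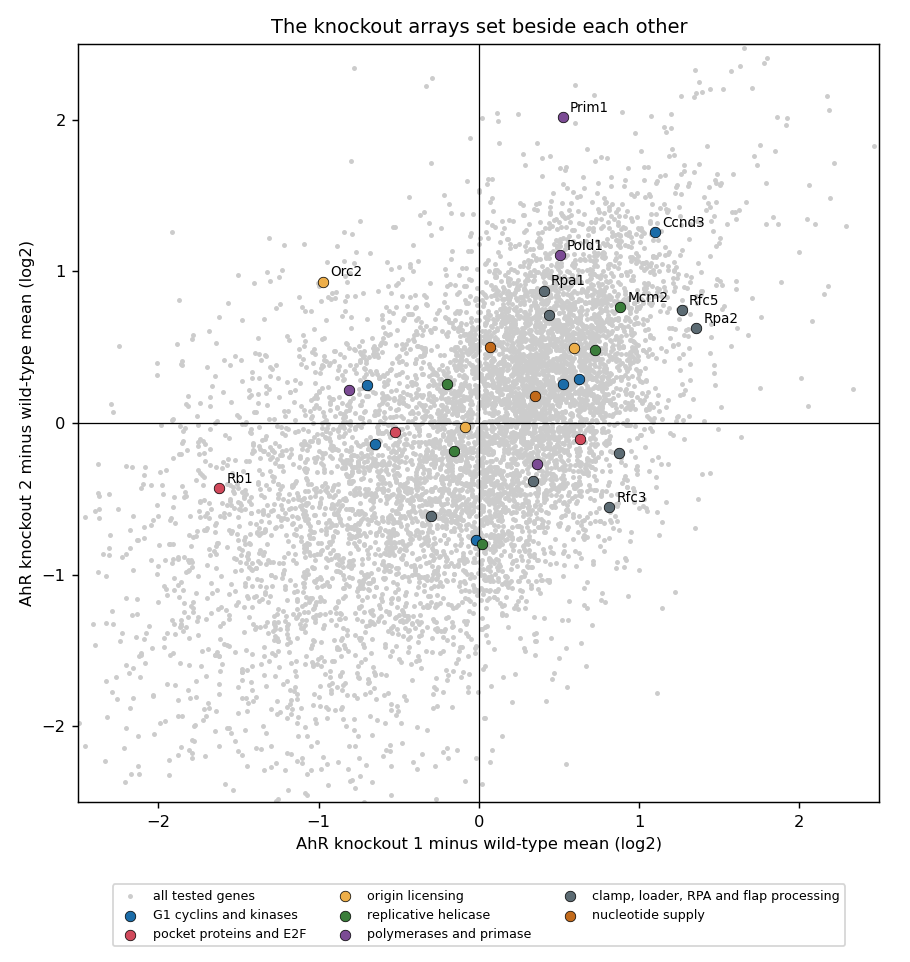
Each knockout array minus the mean of both wild-type arrays (log2), AhR knockout 1 on the horizontal and AhR knockout 2 on the vertical axis, for the 31 tested genes (coloured by role) over all 7436 tested genes (grey); both axes share the wild-type mean and stop at 2.5. Ccnd3, Mcm2, Rfc5, Rpa2, Pold1 and Prim1 lie in the upper right quadrant, Rb1 lies at the left, and Orc2 and Rfc3 lie in opposite corners.

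Probe sets of the same gene often read apart on AhR knockout 2. The set has 77 probe sets, and 22 genes have more than 1. On AhR knockout 2, 19 of the 27 further probe sets bright enough to test were lower, relative to wild type, than their gene's brightest probe set, with a median gap of -0.39. On AhR knockout 1 it was 12 of 27, with a median gap of 0.033. Rrm2 is the clearest case: its brightest probe set read 1877 on AhR knockout 2, within reach of 1777 and 1545 in wild type, while the next read 355 and 385 in wild-type cells against 434 and 192 and the dimmest 51.3 and 74.4 in wild-type cells against 121 and 15.2. Mcm2 gave 0.82 by its brightest probe set and 0.12 by the other, with AhR knockout 2 at 0.77 and -0.043. In all, 8 of the 27 had a mean difference of opposite sign to the brightest probe set, in Ccnd1, Ccnd2, E2f1, Mcm3, Mcm4, Rfc4 and Rrm2. AhR knockout 2 is the array with 3' to 5' ratios of 11.9 for Gapdh and 28.0 for actin. The part of those ratios in these gaps was not tested.

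**Figure D5:**
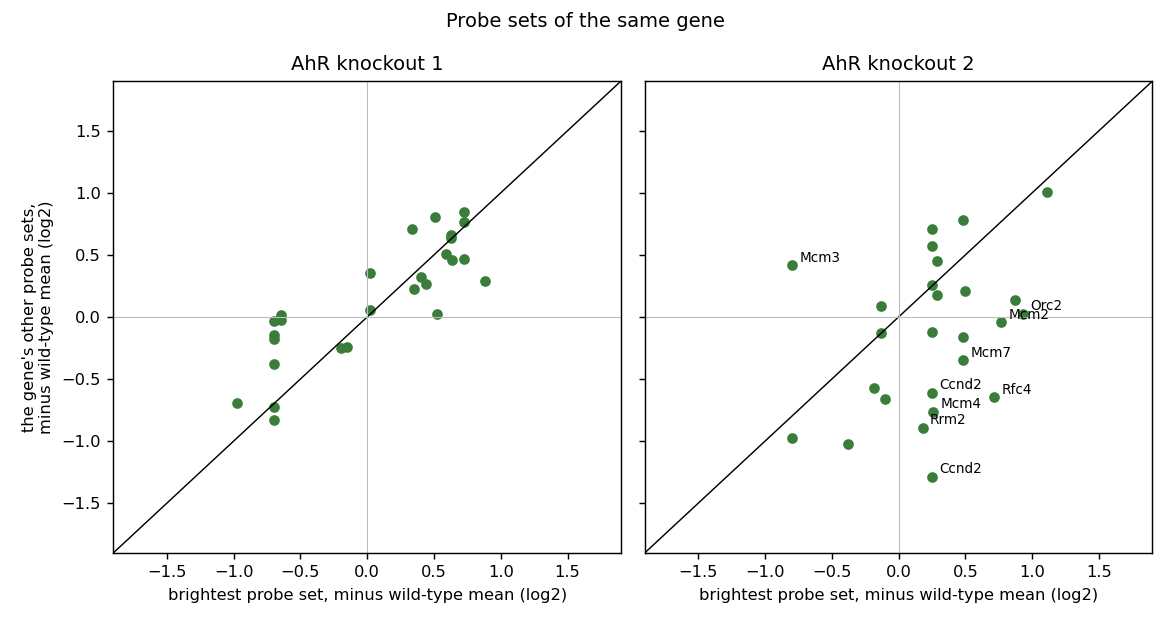
Difference from the wild-type mean (log2) of a gene's brightest probe set (horizontal) against its 27 further tested probe sets from 17 genes (vertical), for AhR knockout 1 (left) and AhR knockout 2 (right); the line marks equality. On AhR knockout 2, 19 of 27 points lie below the line, against 12 of 27 on AhR knockout 1.

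Further genes of the pathway had a median near 0. A list of 74 other replication and G1/S genes had 62 measured and 50 tested members, of which 27 were higher and 23 lower. Their median was 0.034 on the log2 scale. None passed limma, where 0.955% of all tested genes did, and 2 higher and 3 lower had an unadjusted p under 0.05, or 4% and 6% of the 50, against 7.68% and 12.9% of all tested genes. The firing and licensing factors held 7 lower and 2 higher genes, with a median of -0.25, and the further polymerase, loader and maturation subunits 9 higher and 2 lower, with a median of 0.13.

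Thymidylate kinase and a histone chaperone led the higher genes of that list. Dtymk, which makes the diphosphate of thymidine, gave signals of 676 and 623 in wild-type cells, against 1326 and 2288 in AhR-deficient cells, a difference of 1.40 ± 0.39 (SE, 95% interval from 0.52 to 2.28, adjusted p = 0.1). Asf1b, which hands new histones to the replicated strands, read 131 and 88.3 against 234 and 241, a difference of 1.04 with adjusted p = 0.16. Pold2, the partner of Pold1, and Gins4, of the active helicase, differed by 0.75 and 0.71, with adjusted p = 0.29 and 0.32.

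The lower genes were led by a brake on cyclin E and another pocket protein. Fbxw7, which marks cyclin E for destruction, gave signals of 535 and 895 in wild-type cells, against 277 and 229 in AhR-deficient cells, a difference of -1.40 ± 0.39 (SE, 95% interval from -2.28 to -0.53, adjusted p = 0.1). Rbl2, which encodes p130 and represses E2F targets in resting cells, gave signals of 595 and 476 in wild-type cells, against 285 and 157 in AhR-deficient cells, a difference of -1.27 ± 0.40 (SE, 95% interval from -2.16 to -0.37, adjusted p = 0.13). Ctps, which makes CTP, differed by -1.18 and Topbp1, needed for origin firing, by -0.79, with adjusted p = 0.14 and 0.28. Rb1 and Rbl2 were thus below both wild-type arrays on both knockout arrays, while the groups overlapped for Rbl1.

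Mitosis genes, which act after S phase, were mostly higher. Of 37 listed, 35 were measured and 17 tested, and 16 of the 17 were higher, and the list's median was 0.61 (AhR knockout 1, 0.57, and AhR knockout 2, 0.79). None passed limma, and 7 had an unadjusted p under 0.05, all higher, or 41.2% against 7.68% of all tested genes. Of these, Cenpa, Aurka and Birc5 read below the lowest tested mean of 81.1 on both wild-type arrays, and Ccnb2 read 104 and 47.5 there. They were tested because of their signal on the knockout arrays, so the filter has a part in these counts. With dim genes included, the list's median was 0.56. Cenpa, the centromere histone, read 79.6 and 59.1 against 294 and 194, a difference of 1.59 with adjusted p = 0.074. Ube2c and Cdc20, of the ligase that ends mitosis, differed by 1.39 and 1.57, with adjusted p = 0.083 and 0.091. The difference in median between the mitosis and replication genes was not tested. E2F matches were in 6.25% of the 32 mitosis windows, while the CHR element TTTGAA was in 75% of them, 7.89% of the replication windows and 17.9% of all.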

How the data were processed

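RNA of 4 cultures, 2 for each genotype, was measured on 1-colour arrays, and samples were grouped by their titles. The deposited values are linear signal intensity. They come from MAS5 according to the submitters' processing notes, without a stated version, and filters or detection calls are not stated there. Of 22690 probe sets, 20380 had a single symbol and gave 12393 genes, named through RefSeq (GRCm38.p6). Signals were converted to log2(signal + 16), which understates folds of dim genes. The top 60% of genes by mean signal, 7436 with a lowest mean of 81.1, were compared with limma 3.58.1 (lmFit and eBayes, trend on, R 4.3.3) at a Benjamini-Hochberg adjusted p of 0.05. Differences are knockout minus wild type. Arrays carry no count depth, and their number limits the precision. An exact permutation of 2 against 2 arrays cannot pass 0.05.

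The method was tested on simulated data. Genes and lists were chosen with earlier results of these data known. Statistics are printed for the 12 members with the smallest p and the leading member of each role, and for 8 further pathway genes and 3 mitosis genes. Alternatives were quantile normalization, equal medians, a pseudocount of 1 or 64, testing of all genes or of the top 40%, mean of probe sets, eBayes without trend, the title number as a block and each array left out. Figures were drawn with matplotlib 3.10.9.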

Additional observations from a re-analysis of the deposited data

How the results depend on the processing

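That 0 of the set passed limma held under quantile normalization, equal medians, both pseudocounts, both filters, averaged probe sets, eBayes without trend and without either wild-type array. Leaving out arrays gave 0 to 3 members passing, with 20 to 1360 genes called against 71. Such fits rest on 1 residual degree of freedom and assume that the lone array varies like the other group. With the title number as a replicate block 5 of the 31 members passed (Ccnd3, Rb1, Prim1, Rfc5 and Rpa2), and 1406 of all 7436 tested genes did. Deviations of same-numbered arrays correlated at r = 0.353 over all tested genes, but 2 pairs and labels that state no shared litter or day do not establish a pairing. Called genes numbered 26 with quantile normalization, 43 with pseudocount 1, 1 without the filter (at an unadjusted p under 0.05, 840 higher and 1029 lower there) and 20 with the top 40%. With equal medians 31.9% of calls were rises, against 21.1%.

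Higher members at an unadjusted p under 0.05 numbered 1 with the top 40%, 3 with averaged probe sets and 1 to 5 without single arrays. Lower ones numbered 0 with quantile normalization or equal medians and 0 to 4 without single arrays. The median of the set was 0.13 without the filter, 0.082 with averaged probe sets and 0.11 to 0.36 without single arrays. That of the wider list was 0.12 with quantile normalization and 0.12 with equal medians, and -0.022 to 0.055 without single arrays. That of the mitosis list was 0.74 with quantile normalization, 0.41 with averaged probe sets and 0.57 to 0.79 without single arrays. Of the named members, Rrm2 alone changed sign, to -0.11 with averaged probe sets. The cause of these shifts was not tested.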
